A study of Mus musculus with 34 samples.

Results

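The 10 messenger RNAs of the mitochondrial genome followed here in mouse blood were mt-Nd1, mt-Nd2, mt-Nd4, mt-Nd5, mt-Nd6, mt-Co1, mt-Co2, mt-Co3, mt-Cytb and mt-Atp6. They were matched by symbol to the 54532 gene IDs of the count tables, and all 10 were found, with at least 52 counts in every library. Blood RNA came from wild-type (WT) mice given phosphate-buffered saline (PBS, n = 9), ALY688 (n = 10), lipopolysaccharide (LPS, n = 4) or ALY688 together with LPS (n = 7). ALY688 is an agonist of the adiponectin receptors, and LPS is a bacterial cell wall component that sets off systemic inflammation. Each library is 1 numbered mouse. The sources used here do not state dose, sampling time, sex or age. The design text speaks of plasma for the mice with or without ALY688 and of whole blood for the LPS model, while each sample is labelled blood, so LPS and experiment cannot be told apart in the comparisons across LPS.

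The mitochondrial genome is a small circle that encodes a few proteins of the respiratory chain and ATP synthase, together with the rRNAs and tRNAs needed to translate them. Both strands are transcribed into long precursors, which are cut mostly at the tRNAs, and most of the mRNAs are then polyadenylated. Of the mRNAs studied here mt-Nd6 comes from the opposite strand to the others. Mature red cells of mammals hold no mitochondria, whereas reticulocytes, platelets and leukocytes do.

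The 3′ ends of the 10 genes are shown because the libraries were made from RNA captured on poly-T beads, and because the tail is part of the reading frame in some of these mRNAs. Capitals mark the stop codon, or the part of it that the genome encodes. All 10 sequences are the last 24 bases of the GENCODE M21 transcripts on GRCm38, 5′ to 3′ in the sense of the mRNA.
mt-Nd1: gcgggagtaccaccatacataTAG
mt-Nd2: ctagccccccaactaattaccTAG
mt-Nd4: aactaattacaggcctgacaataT
mt-Nd5: ttatactcaattaatctcgagTAA
mt-Nd6: attatcgagattactcgagatTAA
mt-Co1: ccaacctatgtaaaagtaaaaTAA
mt-Co2: aactgatctgcttcaataattTAA
mt-Co3: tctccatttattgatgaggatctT
mt-Cytb: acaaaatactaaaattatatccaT
mt-Atp6: ctatatctacatgataatacaTAA
Of the 10 annotated ends, 7 carry a complete stop codon. The other 3, mt-Nd4, mt-Co3 and mt-Cytb, end in a single T, and polyadenylation completes the stop codon in such mRNAs. Of the 7, mt-Nd1 ends at position 3707 and mt-Nd2 at 4951, inside tRNA genes of the same strand, mt-Ti from 3706 and mt-Tw from 4950. Where the precursor is cut at these tRNAs, the mRNA would also end before its full stop codon. mt-Atp6 ends at position 8607, which is the first base of mt-Co3 on the same strand. Where the precursor is cut before mt-Co3, the same would hold for mt-Atp6.

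A second set of sequences is shown because parts of the mitochondrial genome also exist as nuclear copies, from which these mRNAs cannot always be told apart. The first 60 bases of mt-Co2 and of its copy Gm28661, an unprocessed pseudogene on chromosome 1, are identical. Of mt-Co1 and its copy Gm29216, bases 1054 to 1113 are shown, counted from 1 at the 5′ end of mt-Co1, with the differing bases in capitals.
mt-Co2: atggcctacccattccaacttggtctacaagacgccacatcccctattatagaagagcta
Gm28661: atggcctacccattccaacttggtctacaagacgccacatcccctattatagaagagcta
mt-Co1: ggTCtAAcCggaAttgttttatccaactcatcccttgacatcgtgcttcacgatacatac
Gm29216: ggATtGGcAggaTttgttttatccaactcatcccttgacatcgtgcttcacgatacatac
The 6 substitutions T1056A, C1057T, A1059G, A1060G, C1062A and A1066T, written as the base of mt-Co1, its position and the base of the copy, all lie at the 5′ end of the 492 aligned bases, and the rest of the aligned stretch is identical.

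Libraries held 9554964 to 17338214 counts, of which globin genes took 18.5% to 64.4%. The mean globin share was 56.3% ± 6.22 (SD, n = 9) with PBS, 49.2% ± 6.51 (n = 10) with ALY688, 30.4% ± 10.4 (n = 4) with LPS and 40.5% ± 10.97 (n = 7) with both. In all, 6 libraries detected fewer than 16000 genes: mice 5, 6 and 9 of the PBS group, mouse 7 of the ALY688 group, and mice 6 and 8 of the group given both agents. Levels are given as CPM, the counts of a gene scaled to a common library total, after adjusting that total with TMM factors (trimmed mean of M values, which set the bulk of genes equal between libraries), and those factors ran from 0.333 in ALY688 mouse 7 to 2.52 in LPS mouse 6. For the comparisons across LPS, counts of calls are also given on the plain library size scale, which is CPM over all counts.

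With PBS, mt-Co1 had the highest level per kilobase of gene length, 4604 ± 2590 TMM-scaled CPM per kilobase (SD, n = 9). It encodes the catalytic subunit of cytochrome c oxidase. mt-Cytb, the cytochrome b of complex III, followed at 1078 ± 418, and no PBS library of mt-Cytb reached the lowest PBS library of mt-Co1 (1860 against 1980.3).

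The 5 mRNAs of complex I subunits came next on the per kilobase scale, with mt-Nd1 at 518 ± 45.5, mt-Nd4 at 455 ± 212, mt-Nd2 at 253 ± 27.3, mt-Nd5 at 244 ± 43.1 and mt-Nd6 at 210.3 ± 23.6. Each of these overlapped its neighbour in that order across the PBS libraries, while mt-Nd1 did not overlap mt-Cytb. The remaining 3 were far lower, at 40.6 ± 24.2 for mt-Co2, 20.2 ± 11.4 for mt-Atp6 and 17.1 ± 6.78 for mt-Co3, overlapping each other and not mt-Nd6. The order was the same with ALY688. With LPS mt-Co3 (6.40 ± 2.74) and mt-Atp6 (6.35 ± 2.04) changed places, and with both agents mt-Nd5 (135.1 ± 46.1) and mt-Nd2 (134.6 ± 29.2) did, in each case by less than their spread.

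**Figure D1:**
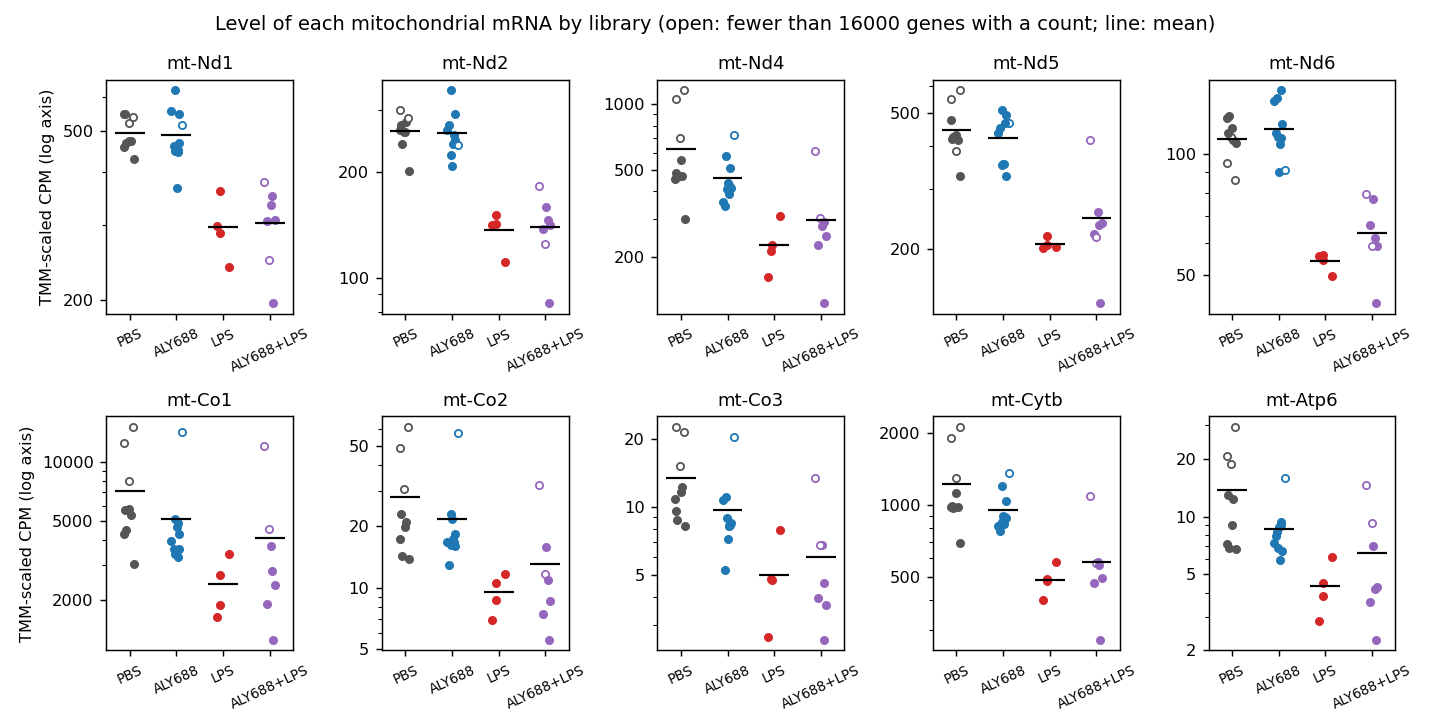
TMM-scaled CPM of each of the 10 mitochondrial mRNAs (log axes with their own ranges), 1 point per library in the 4 groups, with open points for the 6 libraries that detected fewer than 16000 genes and a line at the group mean. The LPS points lie below all PBS points for 8 mRNAs and overlap them for mt-Co1 and mt-Nd4, and the open points top the mt-Co1 panel in PBS, in ALY688 and in ALY688+LPS.

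All 10 mRNAs were lower with LPS than with PBS on the TMM scale, by 0.74 to 1.65 on the log2 scale. edgeR's quasi-likelihood test called each of them at a Benjamini-Hochberg adjusted p below 0.05, in a comparison in which 38.7% of the 12353 genes tested were called and 17.9% were called lower. The 4 LPS libraries did not overlap the 9 PBS libraries for 8 of the 10, a separation in that direction shown by 5.63% of 13476 genes. On the library size scale none of the 10 was called, with fold changes from −0.42 to 0.43, while 47.7% of genes were called and the median over all genes lay at 1.04. The median gene was at −0.04 on the TMM scale, so the members stood below the median gene on both scales.

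Among the complex I subunits, all of which belong to the proton-pumping membrane arm, mt-Nd6 had the smallest adjusted p. Its level was 86.3 at the lowest, 110.4 at the median and 124 at the highest with PBS, and 54.7, 55.9, 49.9 and 56.0 in LPS mice 2, 6, 7 and 8. The 4 LPS values lay close together and under every PBS value, and the fold change was −1.01 ± 0.18 (log2, SE; adjusted p = 0.000309, edgeR).
mt-Nd5 had PBS levels of 327, 426 and 581 (lowest, median, highest) against 205, 202, 203.5 and 219 with LPS. The groups did not overlap, and mt-Nd5 fell by 1.10 ± 0.26 (adjusted p = 0.00394, edgeR). mt-Nd2 stood at 202, 264 and 301 with PBS and at 151, 141, 111 and 143 with LPS, again without overlap, and its change was −0.94 ± 0.22 (adjusted p = 0.00364, edgeR).
For mt-Nd1, the PBS libraries gave 430.4, 474 and 549 and the LPS libraries 361, 299, 239.6 and 288. Its difference, −0.74 ± 0.26 (adjusted p = 0.0323, edgeR), was the smallest of the 10 on the TMM scale. mt-Nd4 ran from 298 over 484 to 1159.5 with PBS and gave 214, 162, 309 and 228 with LPS, so LPS mouse 7 reached above the lowest PBS library. The fold change of mt-Nd4 was −1.45 ± 0.41 (adjusted p = 0.0103, edgeR).

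mt-Cytb, the only mitochondrially encoded subunit of complex III, measured 696, 995 and 2128 (lowest, median, highest) with PBS. The LPS libraries of mice 2, 6, 7 and 8 gave 489.6, 399, 579.5 and 479.9, all below the PBS range, and mt-Cytb fell by 1.33 ± 0.39 (adjusted p = 0.0130, edgeR).

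The 3 core subunits of complex IV were lower as well. mt-Co1 had 3059.6, 5693 and 14936 with PBS and 1895, 1643, 3438 and 2687 with LPS. LPS mouse 7 lay within the PBS range, and the change of −1.55 ± 0.55 had the largest SE and the largest adjusted p of the 10 (0.0361, edgeR).
mt-Co2, whose protein takes electrons from cytochrome c, stood at 13.8, 21.01 and 61.6 with PBS and at 8.74, 6.97, 11.7 and 10.6 with LPS. The groups did not overlap (−1.53 ± 0.39, adjusted p = 0.00638, edgeR). mt-Co3 gave 8.27, 11.6 and 22.6 with PBS against 4.79, 2.66, 7.88 and 4.75, also without overlap (−1.40 ± 0.33, adjusted p = 0.00320, edgeR).
mt-Atp6, which forms part of the proton channel of ATP synthase, had the largest change. Its PBS levels were 6.77, 12.3 and 29.4 and its LPS levels 3.83, 2.84, 6.15 and 4.47, and the fold change was −1.65 ± 0.41 (adjusted p = 0.00468, edgeR).

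The upper ends of the PBS ranges of mt-Nd4, mt-Nd5, mt-Co1, mt-Co2, mt-Cytb and mt-Atp6 belonged to PBS mouse 9, and those of mt-Nd2 and mt-Co3 to PBS mouse 5, both among the libraries with few detected genes. Without these libraries all 10 were still called, beside 20.8% of genes called lower, with fold changes of −0.71 for mt-Nd1 to −1.14 for mt-Atp6. mt-Co1 was then at −1.02 ± 0.37 (adjusted p = 0.0382, edgeR) and mt-Nd4 at −1.03 ± 0.26 (adjusted p = 0.00599, edgeR). On the library size scale without those libraries 0 of 10 were called, beside 44.6% of genes called in either direction, with values between −0.42 and 0.13.

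Scaling on the counts outside globin genes gave a middle result for LPS against PBS. In this fit 6 of 10 were called lower: mt-Nd4, mt-Co1, mt-Co2, mt-Co3, mt-Cytb and mt-Atp6, with fold changes from −0.79 ± 0.20 for mt-Cytb to −1.10 ± 0.31 for mt-Atp6. Of 12227 genes, 8.00% were called lower. The other 4, from mt-Nd1 at −0.26 ± 0.29 to mt-Nd5 at −0.62 ± 0.26, did not pass. With the globin percent of each library as a covariate on the TMM scale, 1 of 10 passed lower, beside 13.3% of genes called lower. It was mt-Nd6 (−1.22 ± 0.32, adjusted p = 0.00892, edgeR). In that fit mt-Nd4, mt-Co1, mt-Co2, mt-Co3 and mt-Atp6 had positive values between 0.10 and 0.31. The globin percent moved with the groups, and its part in the differences cannot be told apart from that of LPS. Leaving out LPS mouse 2, 6, 7 or 8 or PBS mouse 8 left 8 or 9 of 10 called, with mt-Nd1 or mt-Co1 lost.

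**Figure D2:**
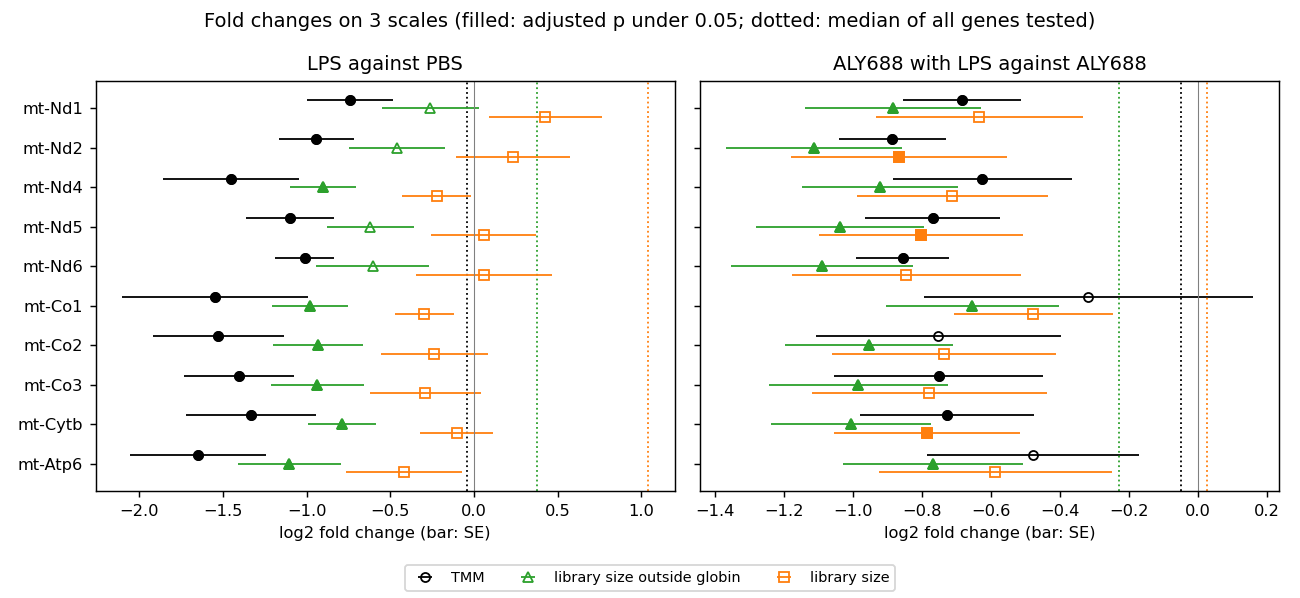
log2 fold changes with SE bars of the 10 mitochondrial mRNAs for LPS against PBS (left) and ALY688 with LPS against ALY688 (right) under TMM, library size outside globin and library size scaling, with filled symbols for adjusted p below 0.05 and dotted lines at the median of all genes tested. On the left the members pass 10 of 10, 6 of 10 and 0 of 10 times in that order, and on the right 7, 10 and 3 times.

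In mice that also received ALY688, LPS went with lower levels of 7 of the 10 mRNAs on the TMM scale. The calls were made in a comparison in which 53.0% of 12266 genes were called and 26.6% were called lower. The members' fold changes ran from −0.32 to −0.89, against a median over all genes of −0.05. On the library size scale 3 of 10 were called lower (mt-Nd2, mt-Nd5 and mt-Cytb), beside 9.82% of genes, and all 10 pointed downward, between −0.48 and −0.87, around a median gene of 0.03.

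The 5 complex I mRNAs were all called. mt-Nd2 ran over 208, 252 and 342 (lowest, median, highest) with ALY688 and 84.8, 142 and 183 with both agents, without overlap, and mt-Nd6 over 90.4, 112 and 144 against 42.6, 61.8 and 79.4, also without overlap. Such separation downward was seen in 6.04% of genes. The fold changes were −0.89 ± 0.15 for mt-Nd2 (adjusted p = 7.44e-05, edgeR) and −0.86 ± 0.14 for mt-Nd6 (adjusted p = 2.55e-05, edgeR).
mt-Nd1 went from 368, 465 and 623 to 197, 308 and 379.6, which overlap, and changed by −0.68 ± 0.17 (adjusted p = 0.00236, edgeR). mt-Nd5 went from 328, 444 and 508 to 139, 235 and 417, and changed by −0.77 ± 0.20 (adjusted p = 0.00268, edgeR). mt-Nd4 overlapped more widely, with 342, 421 and 721 against 123, 277 and 612, and passed narrowly at −0.63 ± 0.26 (adjusted p = 0.0498, edgeR).

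mt-Cytb measured 781, 886 and 1369 with ALY688 and 272, 561 and 1090.5 with both agents (−0.73 ± 0.25, adjusted p = 0.0199, edgeR). mt-Co3 measured 5.24, 8.39 and 20.4 against 2.58, 4.61 and 13.45 (−0.75 ± 0.30, adjusted p = 0.0433, edgeR). Both pairs of groups overlapped, and the highest mouse of each was the one with few detected genes, ALY688 mouse 7 and ALY688+LPS mouse 8.
The other 3 mRNAs did not pass. mt-Co1 ranged over 3319, 4137 and 14104 with ALY688 and 1263, 2814 and 11992 with both (−0.32 ± 0.48, adjusted p = 0.600, edgeR). mt-Co2 ranged over 12.9, 17.1 and 57.6 against 5.55, 10.9 and 31.98 (−0.75 ± 0.36, adjusted p = 0.0851, edgeR). mt-Atp6 ranged over 5.91, 8.14 and 15.997 against 2.27, 4.27 and 14.7 (−0.48 ± 0.31, adjusted p = 0.202, edgeR). All 3 pairs of groups overlapped.
When the 3 libraries with few detected genes in these 2 groups were left out, all 10 passed, beside 58.2% of genes called in either direction, from −0.65 ± 0.15 for mt-Nd1 to −0.93 ± 0.20 for mt-Co3, with mt-Co1 at −0.72 ± 0.23 (adjusted p = 0.0133, edgeR). On the library size scale 9 of 10 then passed, beside 14.2% of genes called lower, all except mt-Nd1 (−0.45 ± 0.19, adjusted p = 0.0505). On the scale of counts outside globin genes, with all libraries, 10 of 10 passed, beside 21.8% of genes called lower, from −0.65 ± 0.25 for mt-Co1 to −1.11 ± 0.25 for mt-Nd2. With the globin percent as a covariate 5 of 10 passed lower (mt-Nd1, mt-Nd2, mt-Nd5, mt-Nd6 and mt-Cytb), beside 27.9% of genes, and mt-Co1 was at 0.25 ± 0.27. Leaving out 1 mouse left 5 to 9 of 10 called, with 9 without ALY688+LPS mouse 8, and mt-Nd4 lost its call in 10 of these 17 fits.

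ALY688 by itself gave no called gene in the whole table. Against PBS, 0 of 10 members and 0% of 11708 genes passed with edgeR, where 1250 genes and 1 member (mt-Atp6, −0.68 ± 0.28) had an unadjusted p below 0.05. DESeq2 also called none, with 1954 genes at an unadjusted p below 0.05. The other members lay between −0.48 for mt-Co1 and 0.07 for mt-Nd6 on the TMM scale, and the PBS and ALY688 libraries overlapped for every member. By library size the values ran from −0.00 for mt-Atp6 to 0.56 for mt-Nd6, around a median gene of 0.50.

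Among mice given LPS, ALY688 likewise gave no called gene. 0 of 10 members and 0% of 12741 genes passed with edgeR, with 464 genes and no member at an unadjusted p below 0.05, and DESeq2 called none, with 742 genes at an unadjusted p below 0.05. The members had a median fold change of 0.25 on the TMM scale and −0.37 on the library size scale, where the median gene stood at −0.49. mt-Co1 had the largest value, 0.77 ± 0.61, which became −0.02 ± 0.37 without the libraries with few detected genes.

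The interaction, the log2 fold change for ALY688 with LPS minus that without LPS, was not called for any member or for any of 13476 genes (0%). By edgeR, 1216 genes and 1 member (mt-Atp6, 1.18 ± 0.51, adjusted p = 0.507) had an unadjusted p below 0.05, and by DESeq2 1721 genes did, none called. The members' median was 0.64 on the TMM scale and −0.59 on the library size scale, where the median gene lay at −0.997.

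A share of counts needs no TMM factor. The 10 mRNAs took 0.693% ± 0.0952 of all counts with PBS (SD, n = 9), 0.786% ± 0.119 with ALY688 (n = 10), 0.614% ± 0.107 with LPS (n = 4) and 0.527% ± 0.113 with both (n = 7). The 4 groups overlapped. Taken over the counts outside globin genes, the shares were 1.60% ± 0.189, 1.55% ± 0.143, 0.879% ± 0.0345 and 0.910% ± 0.242.
On that denominator the LPS libraries gave 0.863%, 0.899%, 0.839% and 0.915% in mice 2, 6, 7 and 8, and the mice given both gave 0.540% at the lowest, 0.855% at the median and 1.27% at the highest. PBS libraries started at 1.36% and ALY688 libraries at 1.34%, so no library with LPS reached any library without it. This sum is mostly mt-Co1. Taken singly on the same denominator, 6 of 10 members did not overlap between LPS and PBS (2.60% of genes separated downward), and 1 of 10, mt-Nd4, between ALY688 with LPS and ALY688 (0.735% of genes). As these are bulk samples, fewer mitochondria-rich cells and less mitochondrial RNA per cell cannot be told apart.

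**Figure D3:**
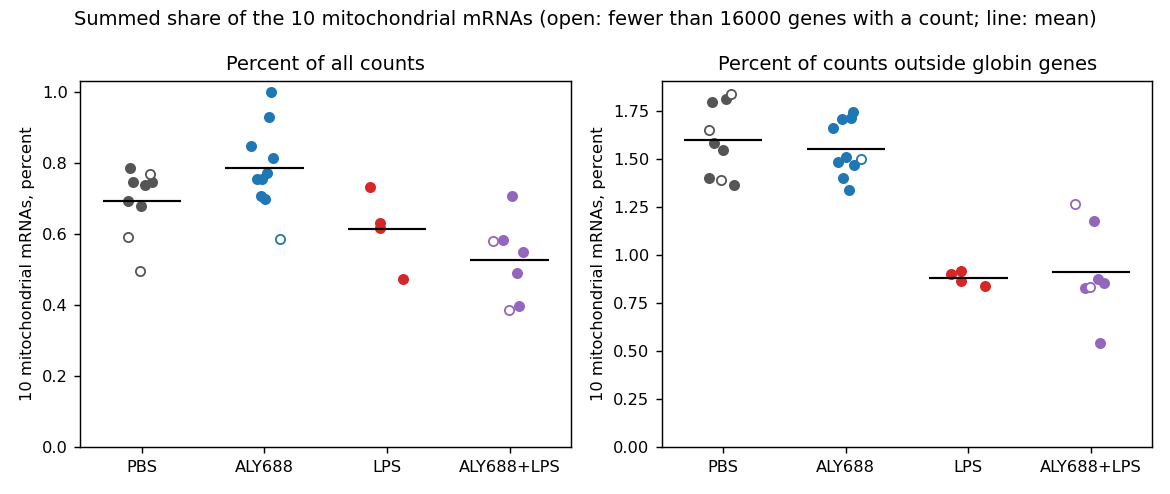
Summed share of the 10 mitochondrial mRNAs in each library as percent of all counts (left) and of the counts outside globin genes (right), 1 point per library with a line at the group mean and open points for libraries that detected fewer than 16000 genes. The groups overlap on the left, and on the right the libraries with LPS, up to 1.27%, lie below those without, from 1.34%.

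Beyond the 10, the mitochondrial chromosome holds 3 more mRNAs, 2 rRNAs and 22 tRNAs. Of the 3 mRNAs, mt-Atp8 had 0 to 4 counts per library, mt-Nd3 0 to 13 and mt-Nd4l 1 to 18. Of the stretches of 100 bases in mt-Nd3 and mt-Nd4l, 97.6% and 98.5% also occur in nuclear copies, so these low counts are uncertain. The copy Gm28438 had a median of 33.5 counts against 4 for mt-Nd3, and Gm10222 had 7 against 8 for mt-Nd4l. The 3 counts taken as the floor correspond to 0.173 to 0.314 CPM. The 2 rRNAs, mt-Rnr1 and mt-Rnr2, were measured through poly-A capture and did not pass with LPS against PBS on the TMM scale (mt-Rnr1 −0.05 ± 0.66, mt-Rnr2 −0.93 ± 0.64), while on the library size scale mt-Rnr1 passed higher (1.82 ± 0.57, adjusted p = 0.0147, edgeR). That call rests on 1 library. mt-Rnr1 was at 1375 CPM by library size in LPS mouse 6, at 73.3, 83.0 and 75.8 in LPS mice 2, 7 and 8, and at 65.5 to 155 with PBS, so the other 3 LPS mice lay within the PBS range. LPS mouse 6 had 0.382% of its counts in the 2 rRNAs against 0.0284% to 0.0335% in the other 3 LPS mice, while its members' share outside globin lay within those 3. With both agents against ALY688, both rRNAs pointed lower on both scales. By library size 1 of the 2 passed lower, beside 9.82% of all genes, and neither passed with TMM. Among the tRNAs, 4 of 22 were tested. mt-Tp, with 85 to 329 counts per library, passed lower with LPS against PBS (−1.54 ± 0.54) and not by library size (−0.30 ± 0.35). mt-Tn, with 0 to 51 counts, passed lower with both agents against ALY688 (−1.37 ± 0.38).

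How the mitochondrial counts divide among the 10 mRNAs is a ratio within a library and free of any scaling between libraries. It still depends on how reads shared with nuclear copies were counted, which is not stated. mt-Co1 supplied 66.6% ± 5.48 of the members' counts with PBS, 62.5% ± 6.79 with ALY688, 61.7% ± 6.65 with LPS and 66.4% ± 8.81 with both. The groups overlapped widely. The libraries with few detected genes set the upper end: mt-Co1 took 70.3% to 81.0% in those 6 and 55.9% to 69.4% in the other 24.
mt-Nd1, mt-Nd5 and mt-Nd6 took a smaller share there, without overlap. mt-Nd1 took 2.56% to 4.62% against 4.83% to 10.6%, mt-Nd5 2.64% to 3.55% against 4.11% to 7.46%, and mt-Nd6 0.435% to 0.978% against 1.01% to 2.07%. The ratio of mt-Co1 to mt-Nd1 counts was 15.2 to 31.6 in the 6 libraries and 5.25 to 14.3 in the rest. The 6 came from 3 of the 4 treatment groups. Globin took 53.6% to 64.4% of their counts and 18.5% to 59.3% in the rest, and the part of red cell RNA in the ratio was not tested.

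**Figure D4:**
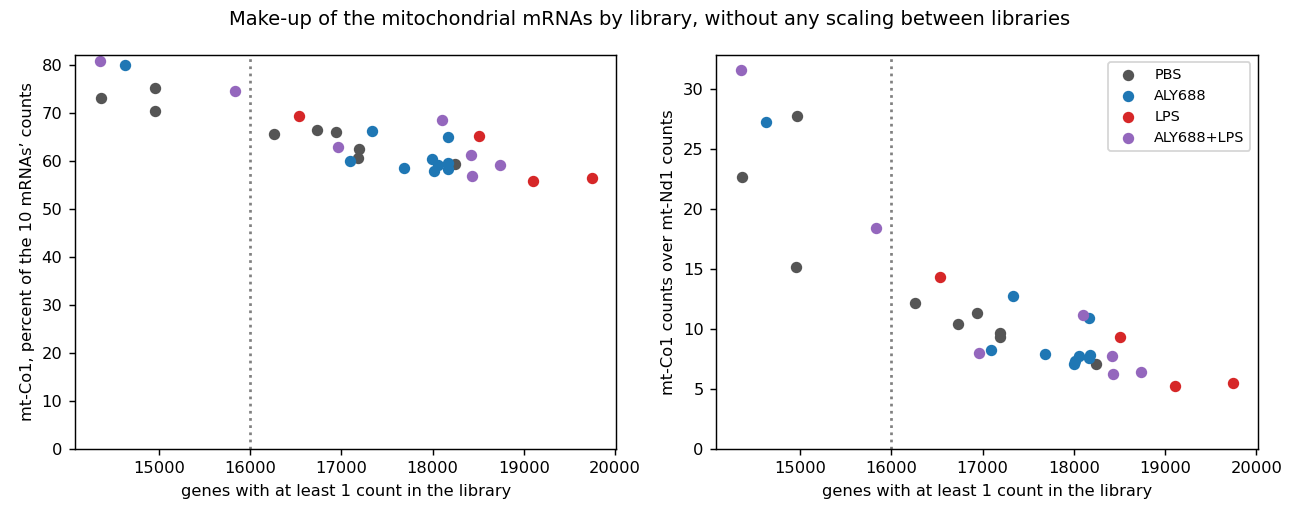
mt-Co1 as percent of the counts of the 10 mRNAs (left) and mt-Co1 counts over mt-Nd1 counts (right) against the number of genes with a count, 1 point per library coloured by group, with a dotted line at 16000 genes. The 6 libraries left of the line have a ratio of mt-Co1 to mt-Nd1 of 15.2 or more, and the 24 to its right of 14.3 or less.

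How the members varied together between mice depended on the 6 libraries with few detected genes. After subtracting group means of the log2 TMM-scaled level, mt-Co1, mt-Co2, mt-Co3, mt-Atp6, mt-Nd4 and mt-Cytb correlated with each other at Pearson's r of 0.86 to 0.99 over 30 libraries, and mt-Nd1 with mt-Nd2 at 0.89. mt-Nd6, the light-strand mRNA, had r = 0.00 with mt-Co1 and 0.66 with mt-Nd2. Without the 6 libraries with few detected genes these values were 0.41 and 0.81 over 24 libraries, and mt-Nd6 had 0.50 with mt-Nd4 (0.08 over all 30) and 0.61 with mt-Cytb (0.13 over all 30). The set of 6 mRNAs then ran from 0.65 to 0.98. All members of a library share its depth and scaling factor, so the values describe the data set.

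Outside the mitochondrial genome, 10 genes followed the mean of the 9 heavy-strand members most closely among 5955 genes with at least 10 CPM on average. Gm10925 (r = 0.97 over 30 libraries, Spearman's rho 0.94) and Gm28661 (r = 0.95, rho 0.87) are the nuclear copies of mt-Atp6 and mt-Co2. Both copies are identical to their member over the aligned 678 and 681 bases, and both members are part of that mean. Reads of gene and copy cannot be told apart there, so the rank of these copies is not independent of the members. Then came Ppp1cb, a catalytic subunit of protein phosphatase 1 (r = 0.945), 1700020I14Rik (0.94), Ppm1b, another phosphatase (0.94), Grap2, an adaptor protein (0.94), Nprl3, Ssbp3, Asb1 and Mxi1 (0.92 to 0.93). In the 24 libraries left after the 6 with few detected genes, r was 0.93 for Gm10925, 0.86 for Gm28661 and 0.85 for Ppp1cb. The others of the 10 then ran from 0.77 for Nprl3 to 0.86 for 1700020I14Rik. The lowest were Cnot3, a subunit of the CCR4-NOT deadenylase (r = −0.89), Hnrnpd (−0.88), the splicing factor U2af2 (−0.86), Zswim8 (−0.86) and Ripk3 (−0.85). In the same 24 libraries these genes ran from −0.62 for Ripk3 to −0.73 for U2af2.

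Nuclear copies covered the members very unevenly. Windows of 100 bases were looked up among GENCODE M21 transcripts outside the mitochondrial chromosome. For mt-Co3 99.9% of windows, for mt-Co2 99.5% and for mt-Atp6 99.5% were found letter for letter, for mt-Nd4 60.8%, for mt-Co1 30.8% and for mt-Nd2 3.19%. For mt-Nd1, mt-Nd5, mt-Nd6 and mt-Cytb it was 0%. The copies of the former 5 lie side by side on the minus strand of chromosome 1, from Gm28439 at chr1:24611535-24612410 to Gm29216 at chr1:24615706-24616197 (GRCm38).
For mt-Co2, mt-Co3 and mt-Atp6, gene and copy had counts of similar size. Gm28661 had a median of 222 counts per library and mt-Co2 211, with a ratio of 0.732 to 1.37 over the 30 libraries. Gm10925 had 100 and mt-Atp6 95, at 0.738 to 1.52, and Gm28437 had 74.5 and mt-Co3 99.5, at 0.537 to 1.052. In contrast, Gm28439 had 20 counts and mt-Nd4 4884, and Gm29216 91.5 and mt-Co1 51847. The sources used here do not say how reads with several matches were counted, so the low levels of mt-Co2, mt-Co3 and mt-Atp6 relative to the other members are uncertain. The same holds for the level of mt-Nd4, the share of mt-Co1 and the sum of the members, which rest in part on copied sequence.
For LPS against PBS the copies' fold changes were −1.59 ± 0.38 for Gm28661 (adjusted p = 0.00404, edgeR), −1.44 ± 0.29 for Gm28437, −1.59 ± 0.44 for Gm10925, −1.43 ± 0.40 for Gm28439 and −1.70 ± 0.48 for Gm29216. Scaled by library size none of these 5 passed. The members without copied windows of 100 bases, mt-Nd1, mt-Nd5, mt-Nd6 and mt-Cytb, had LPS fold changes of −0.74 to −1.33. With windows of 50 bases, 7.61% of those of mt-Nd5 were copied, and none of mt-Nd1, mt-Nd6 and mt-Cytb. Copies outside annotated transcripts were not searched.

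**Figure D5:**
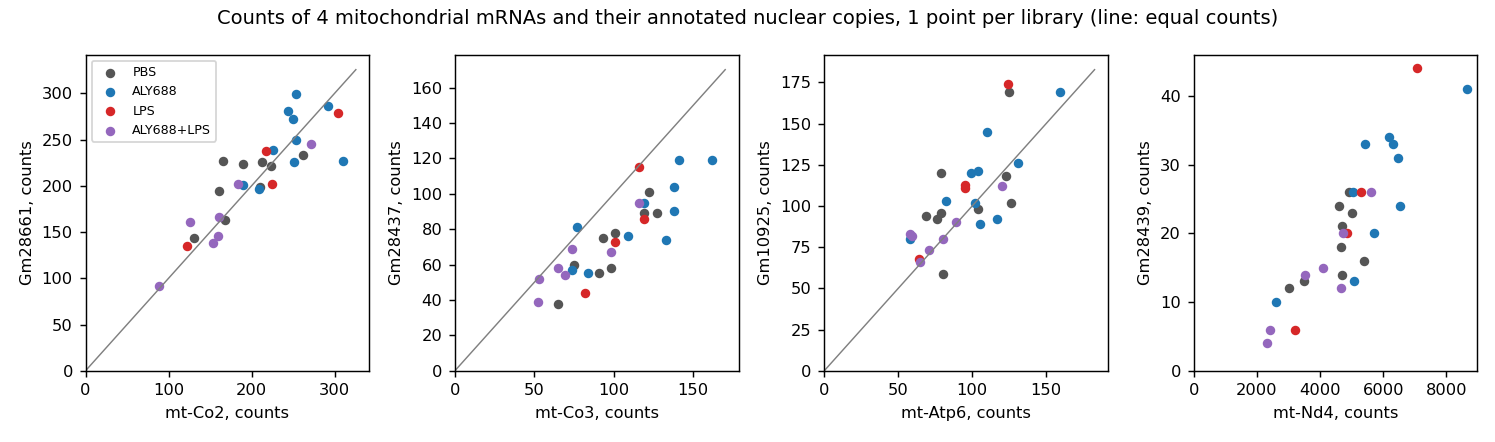
Counts of 4 mitochondrial mRNAs (x axes) and of their annotated nuclear copies (y axes), 1 point per library coloured by group, with a line of equal counts in the first 3 panels. mt-Co2, mt-Co3 and mt-Atp6 have about as many counts as their copies, and mt-Nd4 has medians of 4884 against 20.

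The mitochondrially encoded subunits work in complexes with nuclear-encoded ones. For LPS against PBS, 9 of the 72 tested nuclear subunits of complexes I, III, IV and ATP synthase passed higher and 9 lower on the TMM scale, with a median fold change of 0.06, beside 20.9% of all genes called higher and 17.9% lower. With plain library size scaling 49 of 72 passed higher and none lower, beside 45.3% of all genes higher and 2.41% lower. Whether members and nuclear subunits differed was not tested.
Complex I had 3 of 36 nuclear subunits higher and 2 lower, among them Ndufa8 (1.02 ± 0.16), Ndufc1 (0.96 ± 0.25) and Ndufa3 (−1.58 ± 0.48). Complex III had Uqcrc1 higher (0.47 ± 0.16) and Uqcrh lower (−1.09 ± 0.40) of 9. Complex IV had 1 of 12 higher, Cox5b (0.93 ± 0.20), and 3 lower, with Cox7a2l at −0.77 ± 0.19 and Cox6c at −1.87 ± 0.47. ATP synthase had 4 of 15 higher and 3 lower, with Atp5g3 at 0.60 ± 0.18, Atp5g1 at 1.07 ± 0.33 and Atp5e at −1.51 ± 0.43.
Complex II, which has no mitochondrially encoded subunit, had 3 of 4 higher and none lower: Sdhb (0.79 ± 0.15), Sdhd (0.80 ± 0.16) and Sdhc (0.58 ± 0.18). With ALY688 in both groups, 22 of the 72 passed higher and none lower, beside 26.4% of all genes higher and 26.6% lower, for example Ndufc2 (0.96 ± 0.14) and Atp5f1 (0.73 ± 0.12), and the same 3 genes of complex II passed, Sdhd (0.88 ± 0.10), Sdhb (0.71 ± 0.10) and Sdhc (0.64 ± 0.11). By library size, 6 of the 72 and 1 of the 4 genes of complex II passed higher, beside 15.0% of all genes.

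Of 30 nuclear genes that transcribe and mature mitochondrial RNA, 3 passed lower and none higher for LPS against PBS on the TMM scale, beside 17.9% of all genes lower and 20.9% higher. The 3 were Tfam (−0.84 ± 0.23), which packages mitochondrial DNA and activates its transcription, Tfb2m (−0.79 ± 0.23), which helps the mitochondrial RNA polymerase to open its promoters, and the oligoribonuclease Rexo2 (−1.20 ± 0.39). Scaled by library size 2 of 30 passed higher and none lower, beside 45.3% and 2.41% of all genes.
With ALY688 in both groups 14 of 30 passed lower and 1 higher on the TMM scale, beside 26.6% of all genes lower and 26.4% higher. They included Polrmt, the mitochondrial RNA polymerase (−1.12 ± 0.16), Twnk, the DNA helicase (−1.10 ± 0.15), and Tfb2m (−0.84 ± 0.15). With plain library size scaling 1 of 30 passed lower, beside 9.82% of all genes.
Of 8 regulators of mitochondrial biogenesis, Esrra passed higher (0.68 ± 0.16) and the deacetylase Sirt3 lower (−1.38 ± 0.45) with LPS against PBS on the TMM scale, and 4 passed higher and none lower by library size. Of 12 mitophagy genes, Ulk1 passed higher (0.64 ± 0.21) and Gabarapl2 (−2.12 ± 0.63), Map1lc3b (−1.64 ± 0.58) and Bnip3l (−1.86 ± 0.66) lower. Bnip3l, named after its value was seen, is the receptor by which reticulocytes shed their mitochondria. By library size 5 of the 12 passed higher and 2 lower. These shares of both lists stand beside 20.9% of all genes higher and 17.9% lower with TMM, and 45.3% and 2.41% by library size.

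Markers of the blood cell types moved in the same comparisons. Their counts for LPS against PBS stand beside 20.9% of all genes higher and 17.9% lower with TMM, and 45.3% and 2.41% by library size. For LPS against PBS, 12 of 12 neutrophil markers, led in level by S100a9 and S100a8, passed higher, and their summed TMM-scaled level was 4327 to 14885 with LPS against 596 to 2247 with PBS. All 10 B cell markers (96.3 to 253 against 579 to 1882) and 11 of 12 T cell markers (85.9 to 130.02 against 168 to 615) passed lower. Of the same markers scaled by library size, 12 of 12 neutrophil markers passed higher, and 5 of 10 B cell and 3 of 12 T cell markers lower. Platelet markers had 8 of 15 lower on the TMM scale and 6 by library size (TMM-scaled sums 1959 to 10223 against 3180 to 50452) and red cell markers 3 of 11 lower with TMM, and 4 lower and 1 higher by library size (TMM-scaled sums 4311 to 55355 against 30936 to 169278).
NK cell markers had 5 of 8 higher with TMM and 7 by library size (TMM-scaled sums 389 to 656 against 93.4 to 322), and monocyte markers 5 of 10 higher and 1 lower with TMM, and 6 higher by library size (TMM-scaled sums 2259 to 2927 against 1025 to 5146). With ALY688 in both groups, 12 of 12 neutrophil markers passed higher, 10 of 10 B cell and 12 of 12 T cell markers lower, and 0 of 15 platelet markers in either direction on the TMM scale. By library size, 12 neutrophil markers passed higher, and 10 B cell, 11 T cell and 4 platelet markers lower. Of all genes, 26.4% passed higher and 26.6% lower in this comparison with TMM, and 15.0% and 9.82% by library size. The part of these cell types in the mitochondrial differences was not tested. Muscle markers, whose tissue is rich in mitochondrial RNA, summed to at most 9.41 CPM in any library, and hepatocyte markers to at most 0.941.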

How the data were processed

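Per the labels' protocols, poly-T beads pulled mRNA out of total blood RNA, and random hexamers primed its cDNA. The protocols describe a strand-specific and a non-directional library without saying which was used. For each mouse the authors deposited a table of raw counts, whole numbers of reads assigned to each gene. Alignment with HISAT2 2.0.5 and counting with featureCounts 1.5.0-p3 are named in the submitters' processing notes. The sources used here do not state the build, the annotation release, the strand setting or the treatment of reads with several matches, so reads of overlapping genes (mt-Nd5 with mt-Nd6) and of antisense transcripts cannot be told apart. Counts of 30 of the 34 labelled mice were used. Not analysed here were mouse 10 of the PBS group and mice 3, 4 and 5 of the LPS group. Symbols, lengths and sequences came from GENCODE M21 (GRCm38), which held 54495 of 54532 IDs.

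Groups were compared with edgeR 4.0.16 (TMM factors, filterByExpr, two-sided glmQLFTest after a robust glmQLFit) under R 4.3.3, on the whole table, with Benjamini-Hochberg adjustment over all genes tested and a threshold of 0.05. Only the groups compared entered a fit; all 4 entered the interaction. SEs were derived from the fold change and the F value. Levels in the text use TMM factors over all 30 libraries. The fits were tested on simulated counts. Alternatives were library size scaling, library size outside globin genes, DESeq2 1.42.0, no filter, each library left out, libraries with few detected genes left out (on the library size scale added after seeing the data), globin share as covariate, and mouse number as a block. Counting error is the only error that the floor of 3 counts covers.

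The members and gene lists were chosen with earlier results of these data known. All members were named whatever their values; of each list, up to 3 genes with the smallest p among those that passed; and by likeness the 10 highest and 5 lowest genes in group-centred log2 level (prior count 2). Mice of 1 number were not treated as pairs, since the labels do not say that they belong together.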

Additional observations from a re-analysis of the deposited data

Results flagged for a closer look

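In groups of 4 to 10 mice, a mouse was singled out where its gap to the nearest other mouse was large for the range of its group (Dixon's criterion at 95%). Chance alone singles out about 1 group in 20 where values are normal and groups independent. Here 14 of 96 groups were singled out, 6 of them for ALY688+LPS mouse 8 and 5 for ALY688 mouse 7. The 96 rest on the same libraries and on members that vary together, so their number cannot be set against chance. On the TMM scale, ALY688+LPS mouse 8 stood above the other 6 mice of its group for 6 mRNAs: mt-Nd4 (612, others 123 to 302), mt-Nd5 (417, others 139 to 257), mt-Co1 (11992, others 1263 to 4576), mt-Co2 (31.98, others 5.55 to 15.8), mt-Co3 (13.45, others 2.58 to 6.80) and mt-Cytb (1090.5, others 272 to 576). ALY688 mouse 7 stood above the other 9 for mt-Co1 (14104, others 3319 to 5145), mt-Co2 (57.6, others 12.9 to 23.0), mt-Co3 (20.4, others 5.24 to 11.1) and mt-Atp6 (15.997, others 5.91 to 9.37), and for mt-Co1 as a percent of the members' counts (80.1%, others 57.9% to 66.2%).

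Both of these mice are among the 6 libraries that detected fewer than 16000 genes, and on the library size scale neither was singled out. There, ALY688+LPS mouse 4, which detected 18102 genes, stood above its group for mt-Co2 (20.6 CPM, others 7.32 to 12.9) and mt-Atp6 (9.11, others 4.23 to 6.23). LPS mouse 6 stood apart in mitochondrial rRNA, at 0.382% of all counts against 0.0284% to 0.0335% in the other LPS mice, and not in any of the 10 mRNAs.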

How the results depend on the processing

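Both comparisons across LPS depend on the scaling, and the other 3 gave no called member under any setting. Of the 10 members, LPS against PBS called 10 with TMM and with DESeq2, 9 without a filter, 6 on the counts outside globin genes, 1 with the globin percent as covariate and 0 on library size, with or without the libraries with few detected genes (the latter added after seeing the data). Leaving out 1 mouse called 8 to 10. ALY688 with LPS against ALY688 called 7 with TMM and DESeq2, 3 on library size, 5 with the covariate, 10 outside globin genes and 10 without the libraries with few detected genes, and 5 to 9 with 1 mouse left out. Of all genes, DESeq2 called 12.3% lower for LPS against PBS and 15.8% lower for ALY688 with LPS against ALY688. Without a filter, 6.89% were called lower for LPS against PBS. The cause was not tested.

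The replicate block (mouse number) called 6 and 3 of 10 lower in these comparisons, beside 12.6% and 18.8% of all genes called lower, and none in the others. Same-numbered mice did not deviate together: the correlation passed 0.1 in 2 of 9, 1 of 3, 2 of 4 and 2 of 7 pairs. With the block, ALY688 with LPS against LPS gave mt-Nd1 −0.032 and mt-Nd2 −0.051, and the interaction mt-Nd1 −0.0016 and mt-Nd2 −0.022.

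The sign changes listed next concern fold changes (log2) that did not pass under the alternative, and, outside LPS against PBS, did not pass with TMM either. On library size, LPS against PBS gave mt-Nd1 0.43, mt-Nd2 0.23, mt-Nd5 0.058 and mt-Nd6 0.058, and without the libraries with few detected genes mt-Nd1 0.13. ALY688 against PBS gave mt-Nd1 0.49, mt-Nd2 0.51, mt-Nd4 0.21, mt-Nd5 0.46, mt-Co1 0.083, mt-Co2 0.22, mt-Co3 0.095 and mt-Cytb 0.26. ALY688 with LPS against LPS gave mt-Nd1 −0.57, mt-Nd2 −0.59, mt-Nd4 −0.28, mt-Nd5 −0.40, mt-Nd6 −0.35, mt-Co1 −0.097, mt-Co2 −0.28, mt-Co3 −0.39, mt-Cytb −0.42 and mt-Atp6 −0.17. The interaction gave mt-Nd1 −1.06, mt-Nd2 −1.10, mt-Nd4 −0.49, mt-Nd5 −0.86, mt-Nd6 −0.90, mt-Co1 −0.18, mt-Co2 −0.50, mt-Co3 −0.49, mt-Cytb −0.68 and mt-Atp6 −0.17.

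On the counts outside globin genes, ALY688 against PBS gave mt-Nd1 0.29, mt-Nd2 0.30, mt-Nd5 0.25 and mt-Cytb 0.036. ALY688 with LPS against LPS gave mt-Nd1 −0.34, mt-Nd2 −0.35, mt-Nd4 −0.047, mt-Nd5 −0.17, mt-Nd6 −0.12, mt-Co2 −0.028, mt-Co3 −0.17 and mt-Cytb −0.18. The interaction gave mt-Nd1 −0.63, mt-Nd2 −0.65, mt-Nd4 −0.020, mt-Nd5 −0.42, mt-Nd6 −0.48, mt-Co2 −0.024, mt-Co3 −0.048 and mt-Cytb −0.22.

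Without the libraries with few detected genes, ALY688 against PBS gave mt-Nd1 0.014 and mt-Nd2 0.029, ALY688 with LPS against LPS gave mt-Nd2 −0.040, mt-Co1 −0.016, mt-Co3 −0.21, mt-Cytb −0.054 and mt-Atp6 −0.022, and the interaction mt-Nd1 −0.00057 and mt-Nd2 −0.059. Without a filter, ALY688 with LPS against LPS gave mt-Nd1 −0.0044 and mt-Nd2 −0.0056.

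With the globin percent as covariate, LPS against PBS gave mt-Nd4 0.097, mt-Co1 0.31, mt-Co2 0.14, mt-Co3 0.21 and mt-Atp6 0.28, and ALY688 with LPS against ALY688 gave mt-Co1 0.25. ALY688 against PBS gave mt-Nd1 0.084, mt-Nd2 0.084, mt-Nd5 0.047, mt-Co1 0.16 and mt-Co2 0.25. ALY688 with LPS against LPS gave mt-Nd1 −0.036, mt-Nd2 −0.079, mt-Nd4 −0.19, mt-Nd5 −0.028, mt-Co1 −0.29, mt-Co2 −0.25, mt-Co3 −0.44, mt-Cytb −0.22 and mt-Atp6 −0.27. The interaction gave mt-Nd1 −0.098, mt-Nd2 −0.14, mt-Nd4 −0.16, mt-Nd5 −0.048, mt-Co1 −0.43, mt-Co2 −0.48, mt-Co3 −0.38, mt-Cytb −0.18 and mt-Atp6 −0.15.

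With 1 mouse left out, ALY688 with LPS against LPS ranged from −0.055 to 0.13 for mt-Nd1, −0.055 to 0.11 for mt-Nd2, −0.092 to 0.49 for mt-Co3 and −0.0031 to 0.35 for mt-Cytb, and the interaction from −0.042 to 0.16 for mt-Nd1 and −0.039 to 0.15 for mt-Nd2. The members' share outside globin genes was 1.60%, 1.55%, 0.879% and 0.910% with PBS, ALY688, LPS and both. Per kilobase, mt-Co1 made up 59.5%, 54.9% and 54.0% of the members' counts with PBS, ALY688 and LPS. mt-Atp8, mt-Nd3 and mt-Nd4l lie too close to the floor of 3 counts for comparison. Nuclear copies share most of the sequence of mt-Nd3 and mt-Nd4l, so their low counts are uncertain.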
